A study of Rattus norvegicus with 4 samples.

Results

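The protein kinase C (PKC) isoforms were followed across 4 single-array groups of rat vessels in which 1 of them, Prkcb, carried a deletion. The set held 9 genes, taken by name: the conventional isoforms Prkca and Prkcb, the diacylglycerol-only isoforms Prkcd, Prkce, Prkch and Prkcq, the atypical isoforms Prkci and Prkcz, and the related kinase Prkd1. Probe accessions matched 8 of the 9, with 11 of the 21107 named probes on the array, and the whole array held 16580 named genes. No probe matched Prkca by accession, so it was not analysed here. The 4 groups were PKCbeta deletion (KO) rat vessels with angiotensin II (Ang II), KO vessels without it (KO control), wild-type (WT) Wistar vessels with Ang II, and WT vessels without it (WT control). All animals were male, vessels were isolated from 4 rats per genotype, and the treatment lasted 24 h. The labels give neither the way the deletion was made, nor the part of the gene it removes, nor the vessel, nor whether RNA of several rats was pooled.

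PKC is a family of serine/threonine kinases that relays signals from the cell membrane. Ang II binds its AT1 receptor, the Gq class of G proteins turns on phospholipase C, and the diacylglycerol and calcium that follow switch on PKC. Conventional isoforms need both signals, another class needs diacylglycerol alone, and the atypical isoforms Prkci and Prkcz need neither. In the vessel wall PKC is known for smooth muscle contraction, endothelial permeability and the activation of NADPH oxidase. The design asks how expression differs between the genotypes, with and without Ang II, and here the question was whether the remaining isoforms were higher where Prkcb was deleted.

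With 1 array per group, a ratio of 2 arrays carries no p-value and no replicate check, and the number of arrays limits the precision. Each ratio is given with an error that the scanner software's estimates for its signals imply, which is technical only. A signal is the scanner's background-subtracted intensity, and every ratio is a log2 difference after each array was scaled to its 75th percentile (52.1 for KO Ang II, 47.3 for KO control, 62.4 for WT Ang II and 58.7 for WT control). Signals below are unscaled, so the scaled ratio of 2 equal signals is not 0. Probes well above background made up 41.5% and 40.7% of the KO arrays and 43.5% and 43.6% of the WT arrays. All arrays lay on 1 slide, where position 4 was KO Ang II, 3 KO control, 2 WT Ang II and 1 WT control, so position cannot be told apart from group. Markers fitted the labelled tissue: 7 of 7 smooth muscle and 6 of 7 endothelial markers were well above background on all 4 arrays.

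Prkcb, the calcium- and diacylglycerol-dependent kinase that was deleted, was seen on the WT arrays only. Its probe with 10 spots read 1.89 ± 1.83 in KO Ang II and 1.94 ± 1.94 in KO control, against 18.0 ± 2.66 in WT Ang II and 14.8 ± 2.46 in WT control (software error). Neither KO signal was well above background, and both WT signals were. The SD over the spots used was 0.19 and 0.10 on the log2 scale in KO Ang II and KO control, against 0.25 and 0.20 in WT Ang II and WT control, with 10, 9, 10 and 9 spots. A second probe, with 1 spot, read 1.73 and 1.90 in the KO arrays, against 12.2 in WT Ang II and 8.27 in WT control, and of these only the 12.2 passed the background flag. Where one side is not well above background, the ratio is called a bound, taken against the lowest signal among detected probes on that array. A dim signal above that lowest one was used as read, and such a ratio is not a lower limit. By the first probe Prkcb was at least 2.54-fold lower in KO with Ang II and at least 2.11-fold lower without it. The second gave at least 1.72-fold lower with Ang II. The sources used here do not say whether either probe lies in the deleted stretch. The bounds are far from the ratios as read, which were -2.99 with Ang II and -2.62 without it. With normexp background correction the bounds were -0.17 and -0.10 on the log2 scale, under the 2-fold size.

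**Figure D1:**
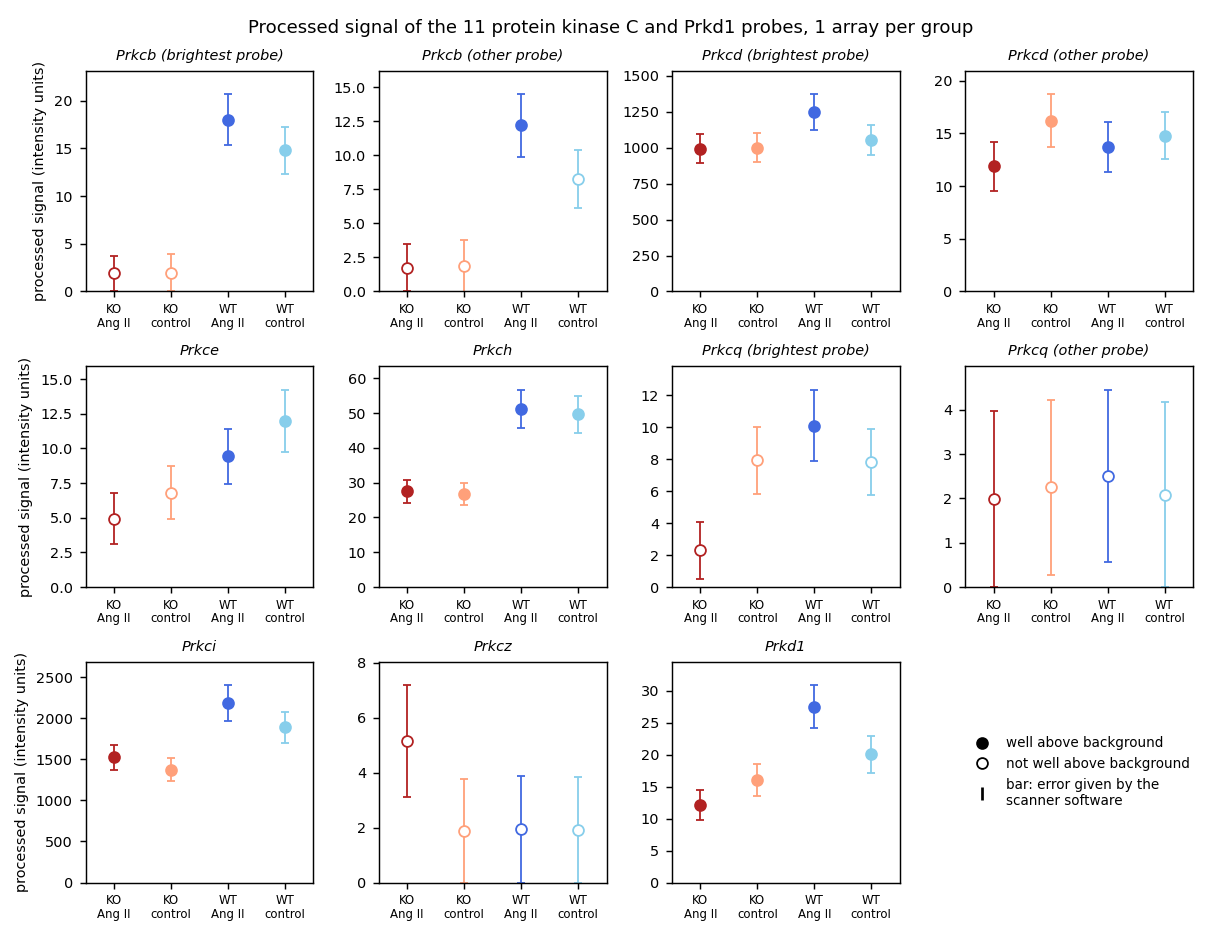
Processed signal (intensity units, linear axes from 0) of the 11 probes of the PKC isoforms and Prkd1, 1 panel per probe and 1 point per array, with KO left of WT. Filled points are well above background, open points are not, and bars are the software error. The 10-spot Prkcb probe is open on both KO arrays and filled on both WT arrays, at 18.0 and 14.8.

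Of the 4 calcium-independent, diacylglycerol-responsive isoforms, Prkcd and Prkch were measured on all arrays, and Prkch was lower in KO. Prkce and Prkcq could be compared only through a WT array that passed the background flag, so their bounds could lie in no other direction than lower in KO. Prkcd, a kinase linked to apoptosis and vascular injury, read 994 ± 99.4 in KO Ang II and 1001.0 ± 100.0 in KO control, against 1247.6 ± 125.0 in WT Ang II and 1051.9 ± 105.0 in WT control. After scaling, the log2 ratio of KO to WT was -0.07 ± 0.20 with Ang II and 0.24 ± 0.20 without it. A second Prkcd probe, also well above background on all 4 arrays, read 11.9 and 16.2 in the KO arrays, against 13.7 and 14.8 in the WT arrays (Ang II, then control). Its ratios were 0.05 ± 0.38 and 0.45 ± 0.31, in the same order. No Prkcd ratio between the genotypes was more than 1.42 times its software error. Replicate spots of similar signal gave the first probe a smaller error of 0.09, which its ratio exceeded without Ang II and not with it. For the second probe these errors were 0.40 with Ang II and 0.38 without it, and again only the ratio without Ang II was outside.

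Prkch, the eta isoform, known best from epithelia and from lymphoid and endothelial cells, was lower in KO by a similar ratio with and without Ang II. It read 27.5 ± 3.38 in KO Ang II and 26.7 ± 3.27 in KO control, against 51.2 ± 5.48 in WT Ang II and 49.6 ± 5.34 in WT control. Both KO signals lay below both WT signals. The scaled log2 ratio was -0.63 ± 0.24 with Ang II, 1.55-fold lower in KO, and -0.58 ± 0.23 without it, 1.49-fold lower. Among all genes measured on both arrays, 11.7% of 8898 had a lower ratio with Ang II and 10.4% of 8770 without it. With normexp background correction the ratios were -0.24 and -0.13.

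Prkce, the epsilon isoform, known for cytoskeletal and cardiac signalling, was dim. It read 4.94 ± 1.86 in KO Ang II and 6.82 ± 1.90 in KO control, against 9.42 ± 1.96 in WT Ang II and 12.0 ± 2.23 in WT control. Only the WT signals were well above background. Prkce was at least 1.33-fold lower in KO with Ang II. Without Ang II the KO signal was used as read, which gave 1.42-fold lower (log2 ratio -0.51 ± 0.48) and no lower limit. Prkcq, the theta isoform of T cells and skeletal muscle, read 2.29 in KO Ang II and 7.92 in KO control, against 10.1 in WT Ang II and 7.82 in WT control. Only its WT Ang II signal was well above background, which allowed 1 genotype bound, at least 1.42-fold lower in KO with Ang II. The other Prkcq probe read 1.98 to 2.51 and was well above background on no array.

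The atypical isoform Prkci, a part of the Par polarity complex, was well above background on every array. It read 1524.4 ± 152.0 in KO Ang II and 1375.1 ± 138.0 in KO control, against 2182.0 ± 218.0 in WT Ang II and 1890.5 ± 189.0 in WT control. After scaling, the log2 ratio was -0.26 ± 0.20 with Ang II and -0.15 ± 0.20 without it. Both were outside the smaller error of 0.09 given by replicate spots of similar signal. Prkcz, the other atypical isoform, read 5.14 in KO Ang II and 1.88 in KO control, against 1.94 in WT Ang II and 1.92 in WT control. None of these was well above background, so Prkcz was not measurable at this signal.

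Prkd1, protein kinase D1, binds diacylglycerol and is phosphorylated by PKC, and in vessels it is known for growth-factor and Ang II signalling to histone deacetylases. It read 12.1 ± 2.32 in KO Ang II and 16.0 ± 2.52 in KO control, against 27.5 ± 3.35 in WT Ang II and 20.1 ± 2.89 in WT control. With Ang II the scaled log2 ratio of KO to WT was -0.93 ± 0.33, or 1.90-fold lower in KO. Without Ang II it was -0.02 ± 0.31. Of the 8898 genes measured on both arrays, 5.3% had a lower ratio with Ang II. With normexp the ratio with Ang II was -0.14, and without Ang II it turned to 0.12.

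**Figure D2:**
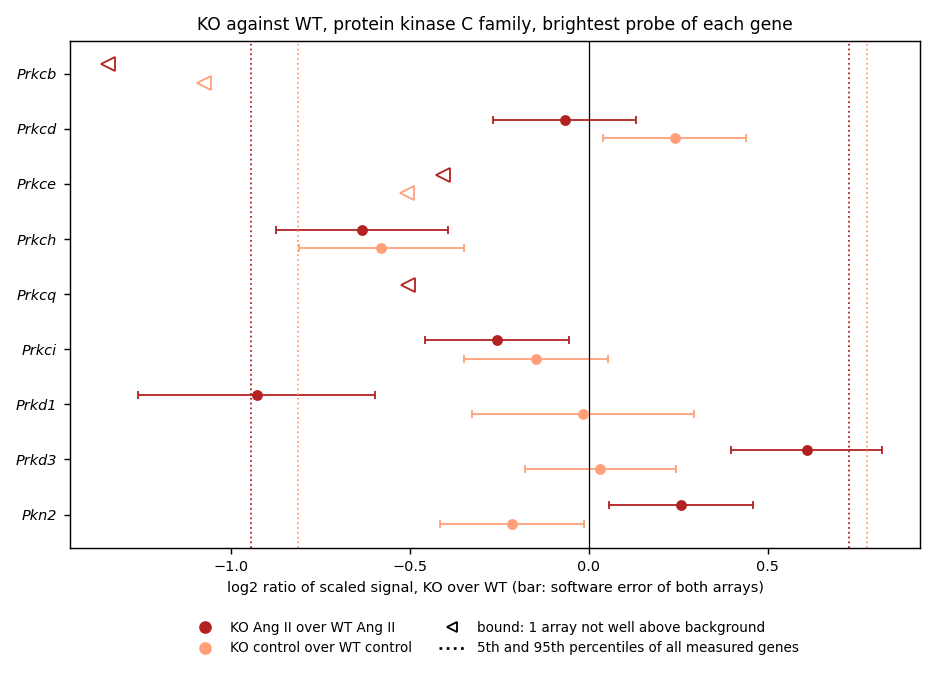
Log2 ratio of KO to WT for each isoform and related kinase, with and without Ang II, by the brightest probe. Points are ratios measured on both arrays with the software error, open triangles are bounds, and dotted lines are the 5th and 95th percentiles of all measured genes. Prkcb is the member plotted past 2-fold, Prkch lies at -0.63 and -0.58, and Prkd1 lies at -0.93 with Ang II and -0.02 without it.

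Counted together, 1 of 7 members compared with Ang II was at least 2-fold lower in KO and 0 were at least 2-fold higher. Over all 9644 genes compared, 5.21% were at least 2-fold lower and 1.95% at least 2-fold higher. Without Ang II the members gave 1 of 6 lower and 0 higher, against 4.06% lower and 2.92% higher of 9582 genes. In both cases the 1 was Prkcb, the deleted gene, and no member measured on both arrays was past 2-fold in either direction. Prkce and Prkcq rested on KO signals not well above background, so whether they were past 2-fold is not known. With Ang II their bounds were at least 1.33-fold and at least 1.42-fold lower, and the ratios as read 1.59-fold and 3.68-fold lower. Of the 4 members measured on all arrays, Prkch, Prkci and Prkd1 had both genotype ratios below 0 (Prkd1 by -0.02 without Ang II, a sign that turned with normexp), as did 35.2% of 8600 genes. By the brightest probe no member of these 4 had both above 0, and 36.7% of all genes did, whereas the second Prkcd probe had both above 0. Restricted to ratios measured on both arrays, 0 of 4 members were past 2-fold in either comparison, beside 4.06% of 8898 genes lower and 1.57% higher with Ang II, and 2.77% of 8770 lower and 1.89% higher without it.

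An additive fit of genotype and treatment over all 4 arrays (limma, 1 residual degree of freedom) called 0 of 9387 genes for genotype at a Benjamini-Hochberg adjusted p of 0.05, and 2453 at an unadjusted p under 0.05. It held 6 members, of which 2, Prkcb and Prkce, entered through their WT arrays alone, which favours a lower value in KO. In limma's fit Prkcb had a genotype coefficient of -2.81 (SE 0.175, adjusted p = 0.0809), which uses the dim KO values as read. Prkch had -0.61 (SE 0.151, adjusted p = 0.127) and Prkce -0.59 (SE 0.156, adjusted p = 0.136), both by limma. Prkd1 had -0.47 (SE 0.27), Prkci -0.20 (SE 0.153) and Prkcd 0.09 (SE 0.168), with limma's adjusted p of 0.333, 0.444 and 0.773. At an unadjusted p under 0.05 with a coefficient below 0, the fit gave Prkch besides Prkcb and Prkce, where 15.3% of all genes did so and 10.9% with a coefficient above 0. Fitted by limma over the 8600 genes detected on all 4 arrays, 1 of 4 members, Prkch, had an unadjusted p under 0.05, beside 2460 of all 8600 genes. With so small a fit, an adjusted p over the threshold does not show that the isoforms were alike in the genotypes.

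No member that could be compared was 2-fold different with Ang II, and those were 4 in KO (Prkcd, Prkch, Prkci and Prkd1) and 7 in WT, where Prkcz alone of those with a probe was missing. In KO, 0 of 4 members were 2-fold higher or lower, beside 0.443% of 9264 genes higher and 1.4% lower. In WT, 0 of 7 members were past 2-fold, beside 2.02% of 9812 genes higher and 0.999% lower. Among ratios measured on both arrays the shares of all genes were 0.126% higher and 0.482% lower in KO, and 1.15% higher and 0.526% lower in WT, again with 0 members. The log2 ratio of Ang II to control in KO was -0.15 ± 0.20 for Prkcd, -0.10 ± 0.25 for Prkch and 0.01 ± 0.20 for Prkci. In WT it was 0.16 ± 0.20 for Prkcd, -0.04 ± 0.22 for Prkch and 0.12 ± 0.20 for Prkci. By the brightest probe these 6 ratios were within their software error. Against the smaller error given by replicate spots of similar signal, Prkcd was outside it in KO (0.09) and in WT (0.10), as was Prkci in WT (0.10). The second Prkcd probe had -0.59 ± 0.36 in KO and -0.19 ± 0.33 in WT.

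Prkcb itself had a log2 ratio of Ang II to control of 0.19 ± 0.32 in WT, and Prkce one of -0.44 ± 0.40. Prkcq was 1.22-fold higher with Ang II in WT (0.28 ± 0.50), by a control signal used as read and not well above background. Prkd1 differed in sign between the genotypes, with -0.55 ± 0.36 in KO and 0.36 ± 0.27 in WT. Only 2.5% of 8717 genes had a lower ratio than Prkd1 in KO, whereas 84.7% of 9122 did in WT. The difference of the 2 responses was -0.91 ± 0.45 for Prkd1, and 3.9% of 8600 genes had a lower one. With normexp that difference was -0.26. It was -0.31 ± 0.29 for Prkcd, -0.11 ± 0.29 for Prkci and -0.06 ± 0.33 for Prkch. For this difference, 0 of 4 members were past 2-fold, beside 1.27% of 8600 genes higher and 2.87% lower. By limma, all 6 members had an adjusted p of 1.0 for treatment, as 0 of 9387 genes were called. At an unadjusted p under 0.05 the term was below 0 for 1 of 6, Prkce, beside 1.8% of all genes below 0 and 2.03% above.

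**Figure D3:**
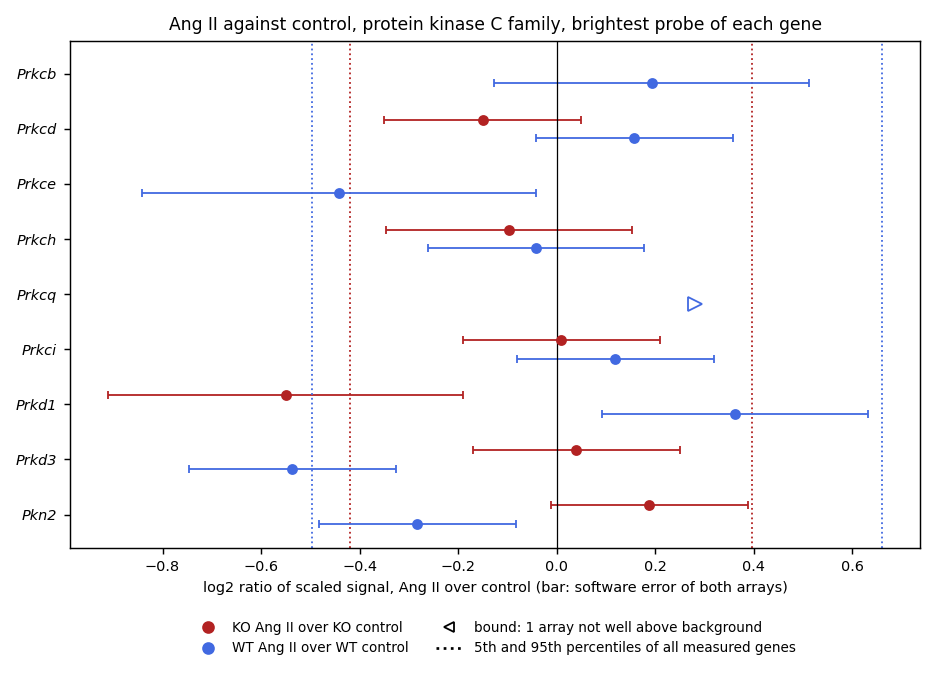
Log2 ratio of Ang II to control for each isoform and related kinase, in KO and in WT, by the brightest probe with the software error, with dotted lines at the 5th and 95th percentiles of all measured genes. Prkcd, Prkch and Prkci lie within their software error of 0 in both genotypes. Prkd1 lies at -0.55 in KO and 0.36 in WT.

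Among related kinases outside the set, Pkn2, which has a PKC-like catalytic domain, read 492 and 392 in KO Ang II and KO control, against 493 and 564 in WT Ang II and WT control. Its log2 ratio of KO to WT was 0.26 with Ang II and -0.21 without it. Prkd2, a relative of Prkd1, was well above background on no array.

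Prkd3, protein kinase D3, was read differently by its probes. The brightest read 78.9 and 69.7 in KO, against 62.0 and 84.5 in WT (Ang II, then control), with ratios of 0.61 and 0.03. A second probe read 32.7 and 27.0 in KO, against 71.0 and 63.2 in WT, with ratios of -0.86 ± 0.22 and -0.91 ± 0.23. The third was well above background on no array. The 2 detected probes thus disagreed on Prkd3, and no direction is given for it.

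Upstream of PKC, the receptor itself was lower in KO. Agtr1a, the AT1a receptor through which Ang II acts, read 6.25 in KO Ang II and 6.33 in KO control, against 27.4 in WT Ang II and 25.9 in WT control. Only the WT signals were well above background. Both KO signals lay above the lowest detected signal of their array and were used as read. By these signals Agtr1a was 3.66-fold lower in KO with Ang II and 3.29-fold lower without it, which are not lower limits. With normexp these ratios were -0.29 and -0.23 on the log2 scale. Its genotype term in limma's fit had an adjusted p of 0.091. Agtr1a entered that fit through its WT arrays alone, which favours a lower value in KO. Gna14, a Gq-class alpha subunit, read 37.3 and 29.9 in KO, against 63.9 and 80.0 in WT, a ratio of -0.52 with Ang II and -1.11 without it. Plcb4, a phospholipase C that Gq activates, read 28.3 and 40.3 in KO, against 21.1 and 20.9 in WT, a ratio of 0.68 and 1.26.

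From receptor to phospholipase C, 0 of 12 genes compared with Ang II were 2-fold higher in KO and 1 was 2-fold lower, beside 1.95% and 5.21% of all genes. Without Ang II, 1 of 14 was higher and 2 were lower, beside 2.92% and 4.06%. These counts take in bounds of genes detected on the WT array alone, 2 with Ang II and 4 without it, which could only lie below 0. Over the 10 genes measured on both arrays in each case, the median ratio was 0.40 with Ang II and 0.06 without it, beside -0.02 and 0.04 over all genes measured. In WT, 11 of the 12 measured genes of this list had a ratio of Ang II to control below 0, with a median of -0.15, beside 44.8% and 0.04 for all 9122 genes measured. In KO, 4 of 10 were below 0, with a median of 0.06, beside 51.7% and -0.01 for 8717 genes. Genes that remove or make diacylglycerol gave 0 of 9 past 2-fold with Ang II and 0 of 10 without it, against the same shares of all genes. Among them Plpp1, a lipid phosphate phosphatase, had -0.76 with Ang II and -0.03 without it, and Plpp3 had 0.19 and 0.69.

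Proteins that mature or degrade PKC, and those that anchor it, had medians above the all-gene value. For maturation and turnover the median ratio was 0.08 with Ang II and 0.24 without it, with 9 genes each. Hsp90ab1, a chaperone that newly made PKC needs, had 0.50 and 1.02. Pdpk1, the kinase that phosphorylates the activation loop of PKC, had -0.09 and -0.22. For anchors and partners the median was 0.12 and 0.24 over 13 genes. Pdlim5, a LIM protein that binds PKC, read 88.3 and 71.2 in KO, against 42.3 and 53.4 in WT, with ratios of 1.32 and 0.73. Rack1, the scaffold named as a receptor for activated PKC, had -0.72 and -0.35.

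Genes of PKC substrates had a median ratio above 0, whereas the textbook substrate was lower in KO. Marcks, an actin- and membrane-binding protein that PKC phosphorylates, read 114 and 126 in KO Ang II and KO control, against 359 and 287 in WT Ang II and WT control. Both KO signals lay below both WT signals, with ratios of -1.39 with Ang II and -0.87 without it. Marcksl1, its close relative, had -0.77 and -0.33. Over the 14 substrates measured the median ratio was 0.20 with Ang II, where 9 were above 0, and 0.22 without it, where 12 were above 0. Of all genes measured, 48.3% were above 0 with Ang II and 53.3% without it. Ppp1r14a, the smooth muscle inhibitor of myosin phosphatase that PKC activates, had 0.46 and 0.39. These lists were assembled with results of these data known.

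**Figure D4:**
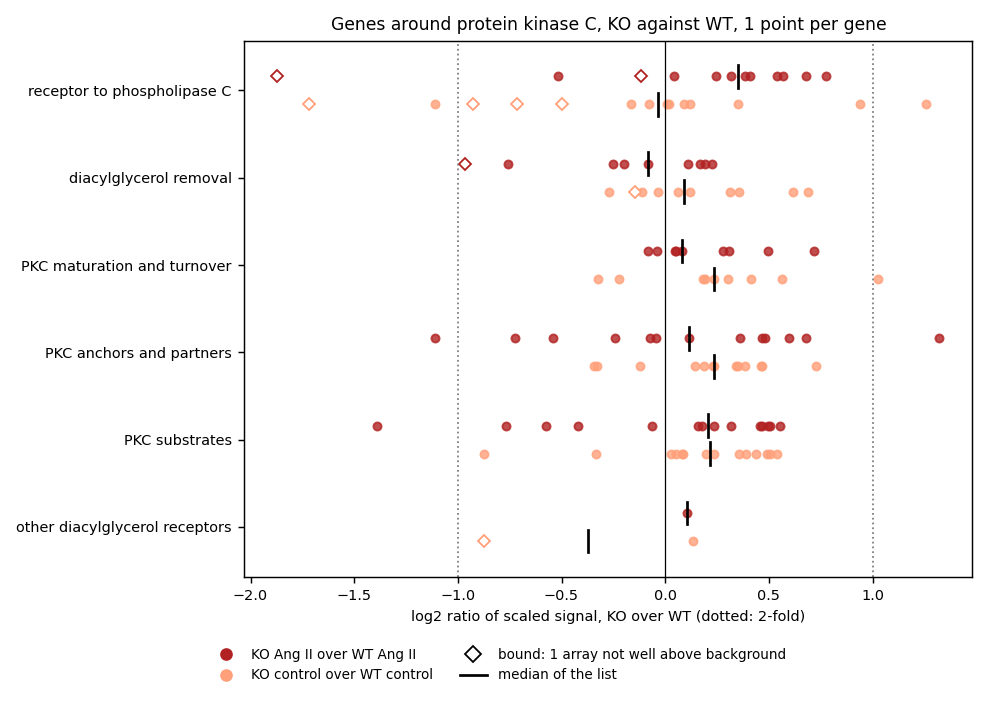
Log2 ratio of KO to WT for genes around PKC, by list, with Ang II (dark) and without it (light), 1 point per gene, open diamonds for bounds and a black bar at each median. With Ang II, Agtr1a and Marcks are the lowest points of their lists at -1.87 and -1.39, and the 6 medians lie between -0.08 and 0.35.

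In whole vessels, fewer cells of a type and less RNA per cell cannot be told apart, and markers of several cell types differed along with the isoforms. The 7 macrophage markers, of which 6 were detected, summed to 12.8 in KO Ang II and 11.5 in KO control, against 26.7 in WT Ang II and 19.5 in WT control, in units of each array's 75th percentile. These sums are of linear signal, so the brightest genes weigh most. Fibroblast markers (6 of 7 detected) summed to 358 and 390 in KO, against 657 and 625 in WT. Among the bright ones, the log2 ratio of KO to WT with Ang II was -1.78 for Col1a1, -1.47 for Col3a1 and -0.14 for Dcn. Smooth muscle markers (7 of 7) ran the other way, with 205 and 190 in KO, against 135 and 142 in WT. Endothelial markers (6 of 7) summed to 21.0 and 19.4 in KO, against 22.1 and 25.0 in WT. Of 7 T cell markers, Cd3d and Cd4 were detected, at 2.49 and 2.44 in KO and 2.39 and 2.44 in WT. Of 7 B cell markers, 5 had a probe and 3 were detected (Cd22, Pax5 and Blk), summing to 5.15 and 4.88 in KO and 4.69 and 3.27 in WT. Pax5 was detected on 4 arrays and made up most of each sum, whereas Cd22 and Blk were each detected on 1. White adipocyte markers (3 of 7 detected) summed to 0.557 and 0.371 in KO, against 1.20 and 1.86 in WT, and nerve markers (3 of 7) to 0.390 and 0.374, against 0.538 and 0.805. Gene by gene, macrophage markers were below 0 in KO for 5 of 6 with Ang II (not Csf1r) and 6 of 6 without it, and fibroblast markers for 6 of 6 with Ang II and 4 of 6 without it (not Dcn and Pi16). Adipocyte markers were below 0 for 3 of 3 in both, all through bounds without Ang II, and nerve markers for 2 of 2 with Ang II and 3 of 3 without it. Prkch and Marcks were also lower in KO. So were Prkcb and Prkce, which were detected on the WT arrays alone and could lie in no other direction. The part of these cell types in those results was not tested.

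Genes whose 4-array profile was most like that of Prkcb were named by the root-mean-square distance of centred log2 values, among the 228 genes well above background on both WT arrays and neither KO array. The reverse pattern, KO arrays only, was held by 25 of the 9966 genes detected. The KO arrays also had fewer probes well above background, 41.5% and 40.7% against 43.5% and 43.6% on the WT arrays. The part of this in the counts was not tested. Akr1c14, an aldo-keto reductase, was nearest at 0.055, and read 1.90 and 1.87 in KO, against 19.1 and 14.3 in WT. Art3 (0.138), Actr6 (0.138), Il18 (0.144) and Slc29a4 (0.151) followed. Il18, a cytokine of macrophages, read 1.89 and 1.93 in KO, against 17.9 and 11.7 in WT. Dim KO values near the scanner's lower limit are alike for any gene that is not detected, which the measure does not set apart.

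The neighbours of Prkcb, taken as 5 genes to each side in the GRCr8 gene table, were read to set the deleted gene beside its surroundings. They were chosen after values of these arrays were known. Of the 10, 8 had a probe and 4 were well above background. Palb2 had a ratio of KO to WT of 0.02 with Ang II and -0.49 without it, and Dctn5 had -0.04 and 0.14. Plk1 had -0.45 and -0.67, and Arhgap17 had 0.88 and 0.68. None of these 4, which lay 3 to 5 genes from Prkcb, was past 2-fold. Of all genes measured on both arrays, 4.06% were at least 2-fold lower and 1.57% higher with Ang II, and 2.77% and 1.89% without it. The nearest neighbour on each side, Chp2 and Cacng3, had a probe but was not detected.

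Promoter sequences of RefSeq (GRCr8, 300 bases around the start of transcription) were held for 7 of the 9 members. The letters GGGCGG, on either strand and known as the GC box, were found in 7 of 7, and in 33.1% of the 33469 promoters of the same length. TGACTCA, the phorbol ester response element, on either strand, was found in 0 of 7 and in 4.6% of all. Base composition differed little among them, with 66.3% to 76.0% G and C. A match is a run of letters only. Shown are Prkce, at chr6:14204239-14204538, and Prkd1, at chr6:73774357-73774656, both on the minus strand, which had the fewest and the most GC boxes, 1 and 6. Prkcq also had 1. All 3 had a ratio below 0 in KO with Ang II, a direction that was fixed for Prkce and Prkcq by detection on the WT array alone. Capitals mark GC boxes, and each runs 5′ to 3′.
Prkce: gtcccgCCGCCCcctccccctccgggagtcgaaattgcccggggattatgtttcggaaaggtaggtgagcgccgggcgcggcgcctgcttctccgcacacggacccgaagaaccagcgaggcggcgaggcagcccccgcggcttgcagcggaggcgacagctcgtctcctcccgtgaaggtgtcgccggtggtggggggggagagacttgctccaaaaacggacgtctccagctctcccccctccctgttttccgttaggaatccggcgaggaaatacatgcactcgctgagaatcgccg
Prkd1: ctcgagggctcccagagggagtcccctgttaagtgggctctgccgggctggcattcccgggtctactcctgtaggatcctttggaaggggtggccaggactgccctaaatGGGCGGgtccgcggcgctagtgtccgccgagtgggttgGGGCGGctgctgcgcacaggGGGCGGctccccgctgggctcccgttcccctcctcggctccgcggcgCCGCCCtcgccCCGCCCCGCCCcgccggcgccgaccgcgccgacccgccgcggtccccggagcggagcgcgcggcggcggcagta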

How the data were processed

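RNA of 4 groups of rat vessels was measured on 1-colour arrays, 1 array per group, and 58717 spots other than controls stood for 45598 probes. The intensity values are deposited scanner output: per the file headers, the processed signal has its background subtracted within the array, with no normalization across arrays. The flags for signal well above background and for outlier spots were deposited as 0 or 1, per the file headers. Feature Extraction is at 10.7.1.1 in the headers and at 12.1.1.1 in the submitters' processing notes. A value table that the authors deposited is in log2, with column medians of 2.11, 2.27, 2.22 and 2.29 for KO Ang II, KO control, WT Ang II and WT control. For 98.3% to 98.4% of probes a column differed from log2 processed signal by 1 constant per array, to within 0.01, and the sources used here do not give the origin of the constant.

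Outlier spots (301 to 372 per array) were left out and the spots of a probe averaged. The main value was log2 of that mean minus the array's 75th percentile. Each gene was represented by the probe of highest mean, chosen from those detected on 1 array or more, where detected means flagged as well above background. Names came from matching accessions to the RefSeq gene table of GRCr8, used for names and gene order only: 21107 of 45594 probes were named. The SD between spots of 1 probe had a median per array of 0.0689 to 0.0786 (log2), technical precision only. Where a gene was detected on 1 of 2 arrays, the dim value was replaced by the lowest detected value there, which gives a bound. A dim value that was higher itself was kept as read. Such a ratio is counted among the bounds but is not a lower limit. Size was called at 2-fold. The additive fit used limma 3.58.1 (R 4.3.3) on genes detected on 2 arrays or more, with 3.13 prior degrees of freedom, and was tested on simulated data. Other steps used Python 3.11.15, numpy 2.4.6 and pandas 2.3.3. The planned background correction named a mean signal that the files used here do not hold, so normexp with an offset of 50 was run on the median pixel signal.

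The members, lists and tests were chosen with earlier results of these data known. Named genes were every probe of the members, the related kinases, up to 4 genes per list by the size of the mean genotype ratio with Agtr1a, Marcks, Ppp1r14a and Pdpk1 added, and up to 5 genes most like Prkcb. Some were left out for length, and some items are not reported here. Nothing in the labels gives batches other than the slide and scan, which all arrays shared.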

Additional observations from a re-analysis of the deposited data

Results flagged for a closer look

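By the brightest probe, the ratio of Ang II to control had opposite signs in the genotypes for 2 of the 4 members measured on all arrays. The share of all genes with opposite signs was not counted. For Prkd1 the log2 ratio of Ang II to control was -0.55 ± 0.36 in KO and 0.36 ± 0.27 in WT, a difference of -0.913. For Prkcd it was -0.15 ± 0.20 in KO and 0.16 ± 0.20 in WT, a difference of -0.308. Both Prkcd ratios were within their software error, so their signs are not established. With 1 array per group the differences were not tested. The second Prkcd probe had -0.59 in KO and -0.19 in WT, so it was below 0 in both genotypes, and with the probes averaged the WT ratio of Prkcd was -0.02.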

How the results depend on the processing

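No paired analysis was possible because each group holds 1 array and the replicate number is 1 in every group. Each comparison was recomputed under 7 alternatives, and some could hardly differ from the main setting. For most probes the authors' values differ from it by 1 constant per array, which the scaling removes. Averaging probes changes nothing for a gene with 1 probe. The difference of responses already required detection on all arrays. With normexp the count of members at least 2-fold different between KO and WT was 0 with Ang II and 0 without it, against 1 and 1. That setting changed the background method, the input signal and the offset together, and the cause was not tested. Prkce could not be compared between genotypes under it. It was 0 and 0 again where genes had to be well above background on all arrays compared, because Prkcb then could not enter. With a gene's probes averaged it was 0 without Ang II, where Prkcb had a bound of -0.66. The counts for both Ang II comparisons and for the difference between them were 0 under all 7 alternatives, as were the calls of both limma terms under 8.

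With normexp Prkd1 had -0.14 with Ang II in place of -0.93, and Prkch had -0.24 and -0.13 in place of -0.63 and -0.58 (with Ang II, then without). Prkcb had bounds of -0.17 and -0.10, and Prkci had -0.41 and -0.31 in place of -0.26 and -0.15. The difference of responses of Prkd1 ranged from -0.91 to -0.26. Signs that turned were Prkcd for Ang II in WT with probes averaged (-0.02), and Prkd1 without Ang II (0.12) and Prkch for Ang II in WT (0.04) with normexp. Prkd3 turned with the mean of its probes in both KO comparisons, and with normexp without Ang II.

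Over all genes, normexp gave 18 higher and 137 lower in KO with Ang II, against 188 and 502, and 25 and 89 without it, against 280 and 389. For Ang II in KO it gave 0 and 4, against 41 and 130, for Ang II in WT 29 and 8, against 198 and 98, and for the difference 20 and 50, against 109 and 247. Requiring detection on all arrays compared gave 166 and 243 in KO without Ang II, 11 and 42 for Ang II in KO, and 105 and 48 for Ang II in WT. Signal over background was the limit for Prkcb, Prkce, Prkcq and Prkcz.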
